A study of Mus musculus with 4 samples.

Results

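The STAT transcription factors and the Janus kinases (JAKs) that activate them were examined in pulmonary group 2 innate lymphoid cells (ILC2s) treated with compound 5D, a small molecule that blocks the Orai calcium channels, or with vehicle. The genes were taken by name from the count table: 6 STAT genes (Stat2, Stat3, Stat4, Stat5a, Stat5b and Stat6) and 3 JAK genes (Jak1, Jak2 and Jak3), which are 9 of the 22554 genes measured. All cells were ILC2s sorted from lungs of wild-type BALB/c mice 6 weeks old, and the labels describe an overnight culture with IL-2, IL-7 and the alarmin IL-33 in both groups, so that the vehicle cells were activated too. The study's text gives another culture time for this experiment, so how long 5D was present is uncertain. There were 2 libraries with vehicle and 2 with 5D. No label says whether the libraries of a group came from separate mice or cultures, so the p-values measure only the spread between these libraries, which may be technical.

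JAKs sit on the inner ends of cytokine receptors, and cytokine binding lets them phosphorylate each other, the receptor and the STAT proteins that dock there. A STAT phosphorylated on a tyrosine near its C terminus pairs with another STAT, enters the nucleus and binds DNA. Receptors built with the common gamma chain, such as those for IL-2 and IL-7, signal through JAK1 and JAK3 and mainly through STAT5, whereas IL-4 and IL-13 act through STAT6, and IL-6 family cytokines through STAT3. ILC2s depend on IL-7 and respond strongly to IL-2, both of which were in the culture medium.

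The coding sequence around the activating tyrosine is shown for each gene, because this residue is the switch that the families share and messenger RNA levels do not report on its state. Sequences were read from GENCODE M21 transcripts (mm10), 5′ to 3′ along the coding strand, with 5 codons on each side. Capitals mark the tyrosine codon of the STATs and the pair of tyrosine codons in the activation loop of the JAKs. Codons are counted from the start codon as 1.
Stat2, codon 688 of 922, chr10:128285669-128285701, plus strand: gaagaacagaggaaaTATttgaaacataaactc
Stat3, codon 705 of 770, minus strand, across an intron within chr11:100889900-100893077: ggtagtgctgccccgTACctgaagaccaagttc
Stat4, codon 693 of 748, chr1:52105223-52105255, plus strand: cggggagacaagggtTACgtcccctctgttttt
Stat5a, codon 694 of 793, chr11:100881740-100881772, plus strand: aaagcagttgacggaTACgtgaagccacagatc
Stat5b, codon 699 of 786, chr11:100784270-100784302, minus strand: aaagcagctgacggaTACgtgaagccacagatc
Stat6, codon 641 of 837, chr10:127658211-127658243, plus strand: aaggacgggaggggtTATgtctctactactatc
Jak1, codons 1033 and 1034 of 1153, chr4:101156413-101156448, minus strand: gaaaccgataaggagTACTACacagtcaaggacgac
Jak2, codons 1007 and 1008 of 1132, chr19:29302016-29302051, plus strand: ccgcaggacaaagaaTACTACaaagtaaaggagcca
Jak3, codons 976 and 977 of 1100, chr8:71686070-71686105, plus strand: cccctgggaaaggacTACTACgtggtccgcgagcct

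The coding sequences of Stat5a and Stat5b were 90.4% identical over 2343 aligned bases, while all other pairs of STATs lay between 45.1% and 56.9%. The JAKs were 51.6% to 54.4% identical to each other. Stat5a and Stat5b shared 14 runs of at least 30 bases without a single difference, the longest of 324 bases, and 6 of at least 75 bases that covered 831 bases in all. One such run of 89 bases, the longest within a single exon, is printed. A read that lies wholly within it cannot by itself be assigned to either gene. The run lies at chr11:100879629-100879717 on the plus strand in Stat5a and at chr11:100790847-100790935 on the minus strand in Stat5b.
Shared run: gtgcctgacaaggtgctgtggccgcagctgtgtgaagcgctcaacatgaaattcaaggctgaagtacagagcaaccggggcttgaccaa
The levels of these 2 genes are therefore uncertain to the extent that the authors' counting split such reads between them. Reads wholly within the 72 exonic bases shared by the ends of Stat3 and Stat5a could not be told apart either. These ends face each other on opposite strands, and no source used here states a stranded count.

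Depth was 23239853 and 20096555 counts with vehicle, and 26912708 and 28697265 with 5D, so that both 5D libraries were deeper. Levels are given as normalized CPM, which are counts relative to the library total, scaled by the upper quartile. All 11 ILC2 markers examined, among them Gata3, Il1rl1 and Il7r, had between 245 and 130046 counts in every library. Of the markers of other cells, Cd4, Scgb1a1, Col1a2 and Pdgfra were at 0 in all 4 libraries, and the Pecam1 level was 21.3 and 23.7 normalized CPM with vehicle and 15.7 and 19.9 with 5D. The summed T cell markers were at 25.6 to 26.0 normalized CPM with vehicle and 27.0 to 27.6 with 5D, most of it from Cd3g. The part of these shifts in the results was not tested. In bulk RNA, fewer cells that express a gene and less of its RNA per cell cannot be told apart.

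All 9 genes were well measured, with 850 to 16067 counts per library, and all passed the filter on low counts. Jak1 stood above 98.7% of the 17650 genes tested by its mean level and Stat2, the lowest of the 9, above 72.1%. Counting error alone was at most 3.43% of any value.

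Levels were set in order after division by the summed exon length of each gene in kilobases. Jak3 came first in every library, with 84.1 ± 1.64 normalized CPM per kb with vehicle and 79.3 ± 1.15 with 5D (SD, 2 libraries each). Jak1 was next in every library, at 74.6 ± 4.44 with vehicle and 77.1 ± 0.949 with 5D. These kinases of the common gamma chain receptors thus had levels per length that were the highest of the 9 genes. Stat3, with 37.7 ± 0.634 normalized CPM per kb, and Stat6, with 36.1 ± 3.50, followed with vehicle. Their libraries overlapped, so these neighbors were not separated by summed exon length. With 5D, Stat6 was at 36.8 ± 0.250 and Stat3 at 35.2 ± 0.908, and all values of Stat6 lay above those of Stat3.

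Jak2 held the fifth place in every library, with 23.0 ± 0.286 normalized CPM per kb with vehicle and 25.6 ± 2.70 with 5D. Stat4 was sixth at 18.6 ± 0.419 and 21.5 ± 1.49, and Stat5b seventh at 17.1 ± 0.765 and 17.2 ± 0.347. Stat5a and Stat2 closed the order. They were at 7.08 ± 0.485 and 7.01 ± 0.218 with vehicle, and at 7.34 ± 0.320 and 7.49 ± 0.790 with 5D. By summed exon length they were not separated from each other in either group. Stat5b was thus 2.24 to 2.46 times as abundant per length as Stat5a in the 4 libraries by summed exon length, and 1.32 to 1.45 times by the length of the longest transcript, within the uncertainty of the shared runs. With the length of the longest transcript in place of the summed exons, Jak3 and Jak1 stayed in the first places with vehicle. They traded them with 5D, as did Stat3 with Stat6 and Stat5a with Stat2. Stat4 moved ahead of Jak2 in both groups. By this length, vehicle levels per kb were 59.5 for Stat3 and 42.1 for Stat6, and 12.8 for Stat5a and 9.45 for Stat2. The lack of separation within these pairs thus depends on the length used.

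**Figure D1:**
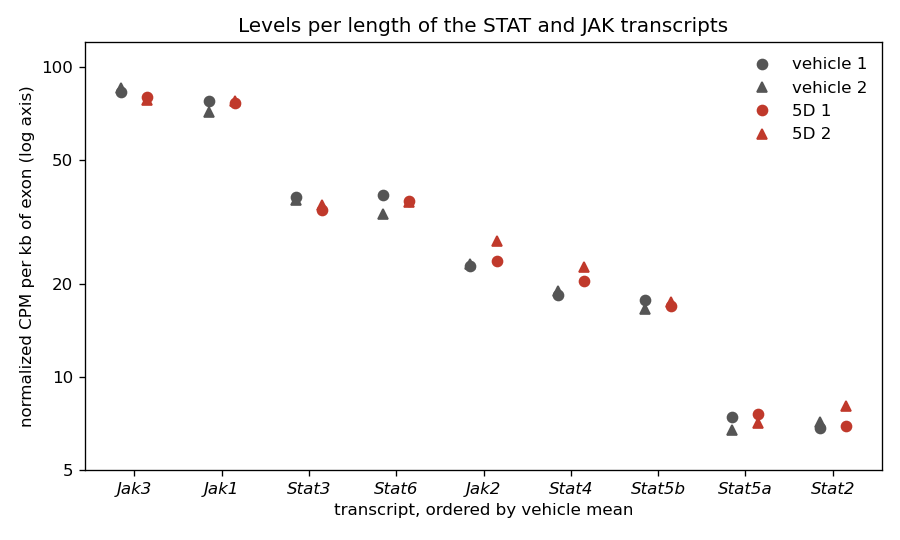
Normalized CPM per kb of exon on a log axis for each of the 9 genes, ordered by the vehicle mean, with a gray point for each vehicle library and a red point for each 5D library (circle replicate 1, triangle replicate 2). Jak3 and Jak1 lie between 71.4 and 85.3 in all libraries, and Stat5a and Stat2 between 6.73 and 8.05.

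Treatment with 5D was then compared with vehicle by edgeR's quasi-likelihood test across all 17650 genes, with Benjamini-Hochberg adjustment. At an adjusted p-value under 0.05, 0 of the 9 genes were called, where 0.0283% of all genes were higher and 0.0680% lower, 0.0963% in all. At an unadjusted p-value under 0.05 there was 1 gene, Stat4, where 7.34% of all genes tested passed, and DESeq2 and limma-voom also called 0 of the 9 after adjustment. The lowest adjusted p-value of a member over all alternatives was 0.505. The log2 fold changes lay between -0.10 and 0.21, with a median of 0.048, beside a median of -0.0016 over all genes. Both libraries of a group lay on one side of both of the other in 4 of the 9 genes, and this held for 37.6% of all genes tested. Stat4 and Jak2 were the 2 with higher values in 5D-treated ILC2s, and Stat3 and Jak3 the 2 with lower values.

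**Figure D2:**
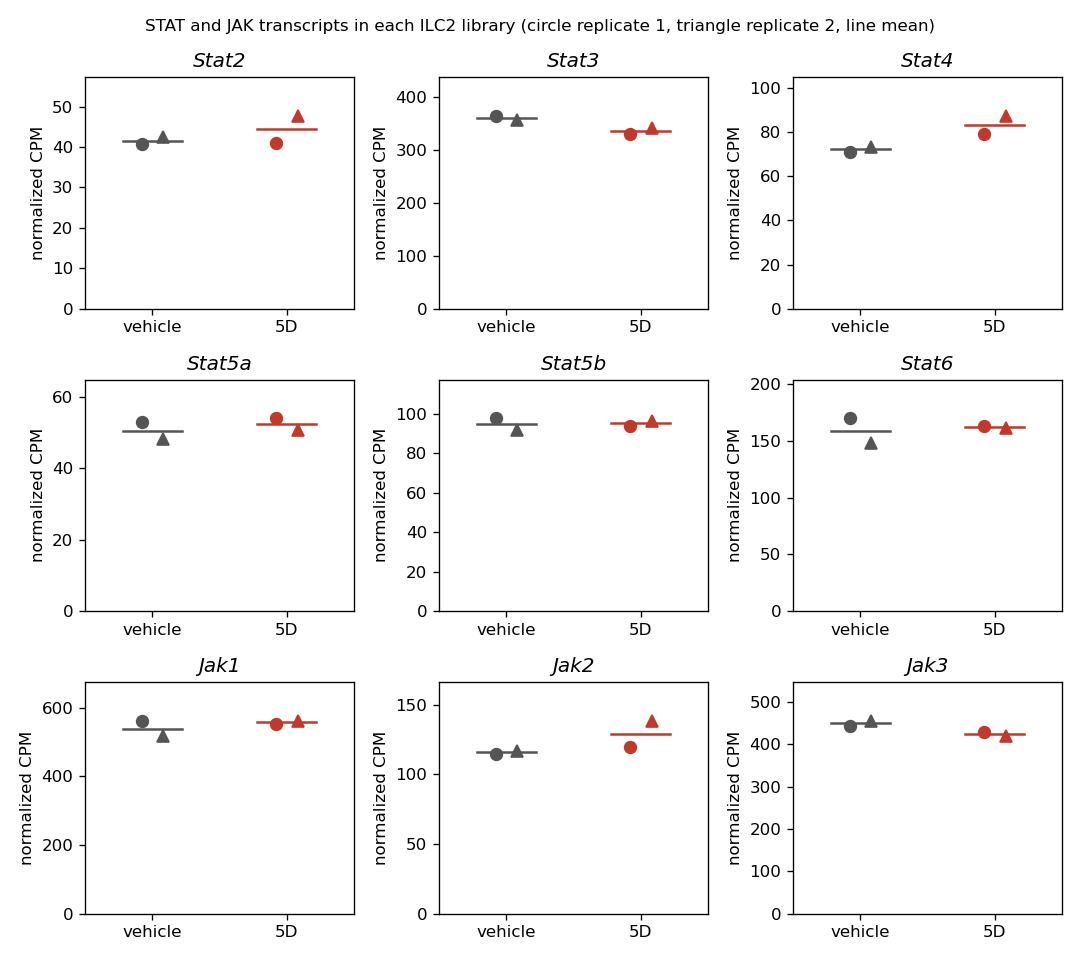
Normalized CPM of each gene in each library, on axes that start at 0, with gray for vehicle, red for 5D, a circle for replicate 1, a triangle for replicate 2 and a line for the mean of the group. The groups are separate for Stat3, Stat4, Jak2 and Jak3 and overlap for the other 5 genes.

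Among the kinases, Jak1 (ENSMUSG00000028530.14, chr4:101152367-101265282, minus strand) serves most cytokine receptor families. Its levels were 561 and 516 normalized CPM with vehicle and 552 and 562 with 5D. The groups overlapped, and the vehicle libraries differed from each other by 0.12 on the log2 scale, more than the groups did. The log2 fold change was 0.048 (standard error, SE, 0.048, 95% interval -0.057 to 0.15, edgeR adjusted p = 0.892), so that the interval reached from a fold of 0.961 to one of 1.11.

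Jak3 (ENSMUSG00000031805.17, chr8:71676296-71690575, plus strand) binds the common gamma chain, and its use is largely limited to lymphoid cells. It was measured at 444 and 456 normalized CPM with vehicle and at 429 and 420.0 with 5D. Both 5D values lay below both vehicle values. The mean was 450.1 ± 8.76 with vehicle and 424 ± 6.14 with 5D (SD, 2 libraries each). This was a log2 fold change of -0.085 (SE 0.043, edgeR adjusted p = 0.726) whose 95% interval ran from -0.18 to 0.010. Its unadjusted p-value from edgeR was under 0.05 when the upper quartile was taken after the filter. Exons of Insl3 overlap 404 bases of those of Jak3, and Insl3 was given 51 to 99 counts per library against 9132 to 12010 for Jak3.

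Jak2 (ENSMUSG00000024789.13, chr19:29251828-29313080, plus strand) signals from receptors such as those for thymic stromal lymphopoietin and interferon gamma. Its levels were 115 and 117 normalized CPM with vehicle and 119 and 138 with 5D. Both 5D libraries lay above both vehicle libraries, by little in replicate 1 and by more in replicate 2, the deepest library. The log2 fold change was 0.16 (SE 0.075, 95% interval -0.0097 to 0.32, edgeR adjusted p = 0.711). It was 0.041 without 5D replicate 2 and 0.26 without 5D replicate 1, where its unadjusted p-value was under 0.05, as it was with TMM, no filter and the replicate block.

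Taken as a ratio within each library, Jak1 was at 0.937 and 0.838 of the Jak3 level per kb with vehicle and at 0.954 and 0.991 with 5D. The ratio of Jak3 to Jak2 per kb was 3.64 and 3.67 with vehicle and 3.38 and 2.85 with 5D. Neither ratio overlapped between the groups, but both were chosen after the values were seen and were not tested. The 3 kinases summed to 1120.1 and 1089 normalized CPM with vehicle and to 1100.2 and 1120.4 with 5D, and these sums overlapped.

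Stat3 (ENSMUSG00000004040.16, chr11:100885098-100939540, minus strand) had the highest normalized CPM of the STATs listed. It stood at 364 and 355 with vehicle and at 329 and 341 with 5D. Both 5D libraries were below both vehicle libraries. The mean went from 359 ± 6.04 to 335 ± 8.65 (SD, 2 libraries each), a log2 fold change of -0.10 (SE 0.046, edgeR adjusted p = 0.682). The 95% interval reached from a fold of 0.869 to one of 1.001, and the log2 fold change stayed between -0.13 and -0.078 over 12 alternatives. With no library left out, its unadjusted p-value was under 0.05 with limma-voom, and with edgeR when the upper quartile was taken after the filter. Without 5D replicate 2 the log2 fold change was -0.13. Stat3, Jak3 and Stat6 are among the genes that the study displays from these same libraries, so their direction here is not independent evidence.

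Stat6 (ENSMUSG00000002147.18, chr10:127642986-127660957, plus strand), the factor of IL-4 and IL-13 signaling, had 169.8 and 148 normalized CPM with vehicle and 163 and 161 with 5D. The vehicle libraries enclosed both 5D libraries and differed from each other by 0.20 on the log2 scale, the widest gap between vehicle replicates among the 9 genes. The log2 fold change was 0.026 (SE 0.069, 95% interval -0.12 to 0.18, edgeR adjusted p = 0.975). It turned to -0.071 without vehicle replicate 2.

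Stat5a (ENSMUSG00000004043.14, chr11:100859351-100885169, plus strand) and Stat5b (ENSMUSG00000020919.11, chr11:100780731-100850724, minus strand) are neighboring genes whose proteins carry the IL-2 and IL-7 signal. Stat5a was measured at 52.9 and 48.0 normalized CPM with vehicle and at 53.9 and 50.7 with 5D. Stat5b was at 97.7 and 91.7 with vehicle and at 93.8 and 96.5 with 5D. In both genes the groups overlapped. The log2 fold change was 0.051 for Stat5a (SE 0.091, edgeR adjusted p = 0.95), with a 95% interval from -0.15 to 0.25. For Stat5b it was 0.0056 (SE 0.068, edgeR adjusted p = 0.997), with a 95% interval from -0.14 to 0.16, and its sign turned to -0.0071 when the upper quartile was taken after the filter.

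The sum of Stat5a and Stat5b does not depend on how their shared reads were split between them. It was 151 and 139.8 normalized CPM with vehicle and 148 and 147 with 5D, with means of 145 ± 7.70 and 147 ± 0.363 (SD, 2 libraries each). The vehicle libraries enclosed both 5D libraries, and the ratio of the means was 1.02.

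Stat4 (ENSMUSG00000062939.11, chr1:51987148-52107189, plus strand), best known as the factor of IL-12 signaling, had the largest difference of the 9 genes. Its levels were 70.9 and 73.2 normalized CPM with vehicle and 79.1 and 87.3 with 5D. Both 5D libraries lay above both vehicle libraries, which differed little from each other. The means were 72.1 ± 1.62 with vehicle and 83.2 ± 5.79 with 5D (SD, 2 libraries each). Here the log2 fold change of 0.21 (SE 0.077, 95% interval 0.038 to 0.38) had an unadjusted p-value of 0.0206 and an adjusted p-value of 0.568 from edgeR. It was 0.13 without 5D replicate 2 and 0.27 without 5D replicate 1. Leaving out vehicle replicate 1 or 5D replicate 2 took the unadjusted p-value above 0.05.

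In addition, 1033 of the 3872 exonic bases of Stat4 are shared with Gm28177 on the same strand, to which 15 to 19 counts per library were assigned against 1465 to 2496 for Stat4. Of the chains of the IL-12 receptor, which lies upstream of Stat4, Il12rb1 had 294 and 292 normalized CPM with vehicle and 304 and 304 with 5D, with an adjusted p-value of 0.875 from edgeR. Il12rb2 was under the filter, with at most 1 count per library.

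Stat2 (ENSMUSG00000040033.16, chr10:128270559-128292849, plus strand) joins the complex that type I interferons activate. It was at 40.6 and 42.5 normalized CPM with vehicle and at 41.1 and 47.7 with 5D. The groups overlapped, and 5D replicate 2 alone stood above the rest. The log2 fold change was 0.096 (SE 0.10, 95% interval -0.13 to 0.32, edgeR adjusted p = 0.90), and it turned to -0.018 without that library. Stat2, Stat4 and Jak2 were the 3 genes in which 5D replicate 2 exceeded 5D replicate 1 by more than 0.1 on the log2 scale, with gaps of 0.22, 0.14 and 0.22.

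**Figure D3:**
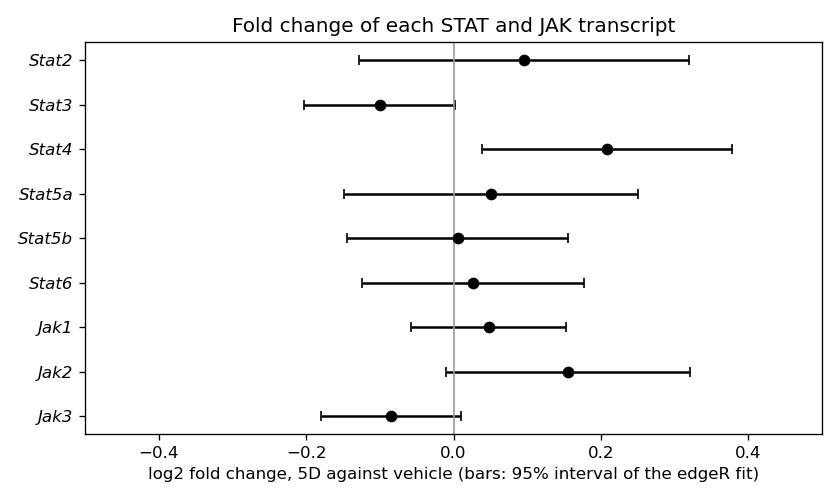
Log2 fold change of 5D against vehicle for each gene (points) with the 95% interval of the edgeR fit (bars), where values above 0 are higher with 5D. The interval lies above 0 for Stat4, from 0.038 to 0.38, and includes 0 for the other 8 genes.

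Within the libraries, Stat3 made up 30.1% and 30.99% of the summed level per kb of the 6 STAT genes with vehicle and 28.0% and 28.1% with 5D. Stat4 made up 14.4% and 15.7% with vehicle and 16.6% and 17.7% with 5D. The ratio of Stat3 to Stat4 per kb was accordingly 2.08 and 1.97 with vehicle and 1.69 and 1.59 with 5D. These shares and this ratio did not overlap between groups, but they follow from the values above and were chosen after those were seen. Together the 6 STAT genes came to 796 and 759 normalized CPM with vehicle and to 759.8 and 785 with 5D, and these sums overlapped.

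RefSeq promoter windows (GRCm38.p6), which run from 250 bases before a start site to 50 after it, were given for all 9 genes, 12 windows in all. The palindrome that most STAT dimers bind, TTCNNNGAA, was found in 0 of the 12 windows and in 8.30% of 32851 windows of all genes, searched on both strands. The wider form preferred by STAT6, with 4 bases between TTC and GAA, was found in 1 window, that of Stat2, and in 6.95% of all windows. The core of the element bound by the interferon-activated complex that holds STAT2, which is GAAA repeated after 2 bases, was found in the window of Stat2 and in 1 window of Stat4, and in 3.44% of all windows. In Stat2 these last 2 matches lie side by side. The matches are printed with up to 15 bases on each side and the match in capitals, as a description of the sequence only.
Stat2, TTC and GAA, chr10:128270273-128270312, plus strand: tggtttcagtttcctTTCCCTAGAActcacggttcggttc
Stat2, GAAA repeat read on the other strand, chr10:128270261-128270300, plus strand: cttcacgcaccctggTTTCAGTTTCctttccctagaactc
Stat4, GAAA repeat, chr1:52008128-52008167, plus strand: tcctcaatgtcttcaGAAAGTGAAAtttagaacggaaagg

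The other genes of the pathway were described from lists of receptors, inhibitors, targets, and partners and adaptors. Of 28 chains of JAK-coupled cytokine receptors, 23 were tested. At an unadjusted p-value under 0.05 the 5D level was higher in 0 and lower in 5. Over all genes, 3.50% were higher and 3.84% lower. Among the 5 was Osmr, a gene of few counts, with 8 and 3 with vehicle and 0 and 0 with 5D. After adjustment 0 passed with edgeR, and 1 with DESeq2 or limma-voom. The median log2 fold change was -0.035, beside -0.0016 over all genes, but it turned to 0.021 without vehicle replicate 2 and was -0.084 without vehicle replicate 1. The chains with the smallest p-values were Il2ra and Il2rb, which with the common gamma chain form the IL-2 receptor. The alpha chain, from Il2ra, raises the affinity for IL-2 and binds no JAK, the beta chain, from Il2rb, binds JAK1, and the gamma chain, from Il2rg, binds JAK3. Il2ra was at 2221 and 2068 normalized CPM with vehicle and at 1771 and 1874 with 5D, and the groups did not overlap. Its log2 fold change was -0.23 (SE 0.041, edgeR adjusted p = 0.0878), and it passed 0.05 with DESeq2, limma-voom, no filter, the replicate block and the upper quartile taken after the filter. Il2rb was at 459 and 464 with vehicle and at 412 and 417 with 5D, likewise without overlap, with a log2 fold change of -0.16 (SE 0.042, edgeR adjusted p = 0.443). Il2rg was at 657 and 655 with vehicle and at 667 and 647 with 5D, so that its groups overlapped, with a log2 fold change of 0.0023 (SE 0.040, edgeR adjusted p = 0.997).

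All 19 genes on the list of inhibitors, which holds the SOCS and PIAS families, Cish and tyrosine phosphatases, were tested. Socs3, whose protein blocks JAKs at receptors that use STAT3 and whose gene is itself a target of STAT3, was the only one past an adjusted p-value of 0.05. It fell from 172 and 185 normalized CPM with vehicle to 107 and 109.8 with 5D, a log2 fold change of -0.72 (SE 0.062, edgeR adjusted p = 0.00179). Cish, a target and inhibitor of STAT5, was at 529 and 537 with vehicle and at 504 and 495 with 5D, with a log2 fold change of -0.092 (SE 0.041, edgeR adjusted p = 0.671). These were the 2 of 19 inhibitors (10.5%) lower at an unadjusted p-value under 0.05, and 0 were higher, where 3.84% and 3.50% of all genes were. The median of the list was 0.015, and -0.017 without vehicle replicate 2.

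The activity of STAT factors was not measured. Of 27 textbook targets, a list chosen like the others with earlier results of these data known, 26 were tested. At an unadjusted p-value under 0.05 the 5D level was lower in 10 and higher in 1, where 3.84% and 3.50% of all genes were. The median log2 fold change was -0.067, beside -0.0016 over all genes. In 15 of the 26 genes the 5D values were both under the vehicle values, where 18.8% of all genes tested did so. In 2 they lay above, where 18.7% did. On the other lists they lay under in 8 and above in 4 of 23 receptor chains. For 19 inhibitors these counts were 3 and 5, and for 14 partners and adaptors 2 and 2. After adjustment Socs3 alone of the targets passed with edgeR, and DESeq2 added Il2ra and Pim1. The single target higher at an unadjusted p-value was Mx1, an interferon-stimulated gene, with 2 and 0 counts with vehicle and 10 and 15 with 5D. Bcl6, 1 of the 10 lower targets, also had few counts, with 49 and 26 with vehicle and 19 and 19 with 5D. Cish, Socs1, Socs2, Socs3, Il2ra and Il4ra stand on this list and on one of the lists above, and Irf9 on this list and the next, so the lists are not independent of each other. Of 14 partners and adaptors, which include Irf9, the DNA-binding partner of STAT2, 0 were higher and 0 lower at an unadjusted p-value under 0.05. Over all genes 3.50% and 3.84% were, and the median of the 14 was -0.051. DESeq2 and limma-voom called 0 of them after adjustment.

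**Figure D4:**
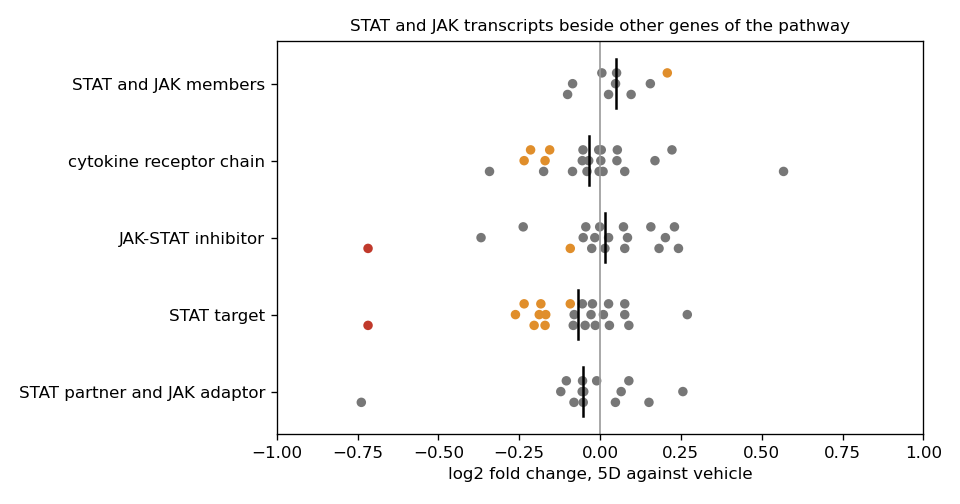
Log2 fold change of 5D against vehicle for the 9 STAT and JAK genes and for the tested genes of the 4 lists (points), with the median of each as a black line; red marks an adjusted p-value under 0.05, orange an unadjusted p-value under 0.05 and gray the rest. The axis ends at 1 in both directions, which leaves out 4 points of low counts, and the red point, drawn on each of the 2 lists that hold it, is Socs3.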

How the data were processed

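RNA of sorted lung ILC2s was measured in 2 vehicle and 2 compound 5D libraries. The authors aligned the reads to mm10 with STAR 2.6.1 (version per the submitters' processing notes), quantified them in Partek with GENCODE M21, and deposited estimated counts per gene before normalization; between 52.3% and 55.3% of the values of a library were whole within 0.0005. These were rounded. Of 22554 genes, 22079 matched the GENCODE M21 copy by symbol and chromosome; in the deposited table the end positions of the 9 genes are 1 base larger than in the annotation printed here.

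The tools were edgeR 4.0.16, DESeq2 1.42.0 and limma 3.58.1 under R 4.3.3. The upper quartile over all genes scaled the counts, and the filter of the study's methods (normalized counts with a mean of 1 or more and a sum of 10 or more) left 17650 genes. Groups were compared two-sided by the quasi-likelihood test of edgeR, adjusted by Benjamini-Hochberg, and the Gene Set Analysis of the authors was not run. The SE of a log2 fold change is its size over the square root of F. Relabeling 2 against 2 libraries is too coarse to call a gene, so no exact test of single genes was made. Every pair of libraries differed by more than counting error, and all 4 were counted as separate. The code was tested on simulated data. Counting intervals do not cover amplification. Near-identical stretches (at least 150 bases at 95% identity) were searched with BLAST 2.17.0, coding sequences aligned with MAFFT 7.526. Figures came from matplotlib 3.10.9 (Python 3.11.15).

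The members and lists were chosen with earlier results of these data known. Named are all 9 members. From each list, those past 0.05 after adjustment and the 2 smallest unadjusted p-values under 0.05 in each direction were named too. Il12rb1, Il12rb2, Il2rg, Irf9, Pim1, Osmr and Bcl6 were added after their values were seen. Alternatives were TMM, DESeq2's size factors, the upper quartile after the filter, limma-voom, the Wald test of DESeq2, filterByExpr, no filter, the replicate number as a block, each library left out, and for levels also CPM of the library total and the longest transcript.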

Additional observations from a re-analysis of the deposited data

How the results depend on the processing

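Over 12 alternatives, 0 of the 9 genes passed an adjusted p-value of 0.05 in any, and 101 of 108 recomputed log2 fold changes kept their sign. Signs turned for Stat5b with the upper quartile after the filter (-0.0071), without vehicle replicate 2 (-0.041) and without 5D replicate 2 (-0.017), for Stat2 without 5D replicate 2 (-0.018), and without vehicle replicate 2 for Stat5a (-0.019), Stat6 (-0.071) and Jak1 (-0.014). With a library left out, the highest values were 0.20 for Stat2, 0.12 for Stat5a, 0.049 for Stat5b, 0.13 for Stat6, 0.11 for Jak1 and 0.26 for Jak2. The lone library of a group is then assumed to vary like the other group. At an unadjusted p-value under 0.05, 1 member passed (Stat4), 2 with TMM, limma-voom, no filter or the replicate block, 3 with the upper quartile after filtering, and 0 to 2 with a library left out.

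Over all genes, an adjusted p-value under 0.05 was reached by 5 higher and 12 lower genes. DESeq2 gave 17 and 43, limma-voom 9 and 23, and no filter 11 and 35. Leaving out a library gave 3 to 73 higher and 12 to 107 lower, and 73 and 107 came without vehicle replicate 1. With the replicate number as a block, 9 were higher and 32 lower. The numbers are not shown to pair the libraries: deviations of same-numbered libraries correlated at 0.0088 across genes.

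The receptor list held 1 called gene (Il2ra) with the upper quartile after the filter, DESeq2, limma-voom, no filter and the block, and 0 to 1 with a library left out. Its median was -0.049 with the upper quartile after the filter, -0.020 with filterByExpr, and -0.084 to 0.021 with a library left out. The target list held 2 called genes with the upper quartile after the filter, limma-voom, no filter and the block, 3 with DESeq2, and 1 to 3 with a library left out, with medians of -0.11 to -0.049. The median of the inhibitor list was 0.0025 with the upper quartile after filtering and -0.017 to 0.036 with a library left out. The median of partners and adaptors then lay between -0.076 and 0.013. With the longest transcript, levels with vehicle in normalized CPM per kb were 9.45 for Stat2, 59.5 for Stat3, 24.2 for Stat4, 12.8 for Stat5a, 18.2 for Stat5b, 42.1 for Stat6, 109.8 for Jak1 and 111 for Jak3. The cause of these shifts was not tested, other than that fewer libraries or other genes enter a fit.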
